A study of Mus musculus with 12 samples.

Results

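Genes for the subunits of the nuclear-encoded oxidative phosphorylation machinery were followed in mouse macrophages. A gene was a member when the array's annotation gave it a symbol beginning Nduf followed by a, b, c, s or v and a number, Cox followed by a digit of the 4 to 8 series, Uqcr, or Atp5. A detection p under 0.05 on at least 3 of the 12 arrays was also required, and each gene was read from its probe with the highest mean signal. The array carried 74 such symbols, and 68 passed, of 9795 genes tested in all. By symbol, 34 belonged to complex I, 7 to complex III, 11 to complex IV and 16 to complex V. The symbols do not sort perfectly by function. Ndufa4 is named for complex I but is known as a subunit of complex IV, Cox7a2l is an assembly factor for supercomplexes rather than a fixed subunit, and Ndufs5-ps carries the symbol of a pseudogene, so its probe may read a near-identical copy.

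The cells were bone marrow-derived macrophages of C57BL/6 mice aged 9 to 16 weeks, grown for 8 to 9 days in medium with 20% L929-conditioned medium. The cyclodextrin group received 4% cyclodextrin for 4 h, the HDL group (written nHDL in the labels) 300 ug/ml high-density lipoprotein for 24 h, and the PBS LPS group PBS, a saline buffer, and 10 ng/ml LPS followed for 6 h after a wash. The PBS no LPS group received PBS without LPS. Cyclodextrin draws cholesterol out of membranes and HDL accepts cholesterol from cells, while LPS, a bacterial cell wall lipid, activates macrophages through Toll-like receptor signalling. Each group had 3 arrays of total RNA. The labels give no contact time for PBS, so contact time and handling cannot be told apart from the compounds. They also do not say whether the 3 samples of a group came from separate animals or cultures, so p-values measure the spread between these samples only, which may be technical.

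Complex I passes electrons from NADH to ubiquinone, complex III passes them on to cytochrome c, and complex IV hands them to oxygen. Complex V uses the resulting proton gradient to make ATP. Most subunits are encoded in the nucleus and imported, and a few core subunits are encoded in mitochondrial DNA. Macrophages activated by LPS are known for a shift toward glycolysis and for using the chain partly to make reactive oxygen species.

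The share of probes detected was 33.3% to 35.2% in cyclodextrin arrays, 35.8% to 36.2% in HDL arrays, 36.4% to 36.9% in PBS LPS arrays and 36.1% to 38.6% in PBS no LPS arrays. All 10 macrophage markers on the array were detected, with a mean log2 signal between 10.51 and 11.19 over all arrays. No erythroid marker was detected. Of the neutrophil markers 5 of 7 on the array were detected, averaging 6 to 6.66 over all arrays. The B cell marker Cd79b (1 of 3) lay at 5.9 to 6.92, and the T and NK cell marker Prf1 (1 of 6) at 8.56 to 9.45. Of the fibroblast, mast cell and basophil, and dendritic cell markers on the array, 2 of 5, 3 of 5 and 2 of 6 were detected. The detected fibroblast markers, Dcn and Lox, averaged 6.56 to 6.66 in PBS LPS arrays against 4.58 to 4.68 in PBS no LPS arrays, and the mast cell and basophil markers Kit, Hdc and Fcer1a averaged 7.35 to 7.54 in PBS LPS arrays against 5.69 to 5.92 in PBS no LPS arrays. The dendritic cell markers Itgax and Clec9a averaged 5.45 to 6.18 in PBS LPS arrays against at most 5.18 in PBS no LPS arrays. The part of these markers in the results was not tested. Of the 68 members, 67 were detected on all 12 arrays. Uqcrfs1, the Rieske iron-sulfur protein of complex III, was detected on 3 arrays. Cox4i2, Cox6b2, Cox7b2, Cox8b, Cox8c and Ndufs1 were detected on 0 arrays and did not enter. Precision is limited by the number of arrays, and in RNA from whole cultures fewer cells and less RNA per cell cannot be told apart.

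The first comparison asked what LPS did to these genes in cells that had seen only PBS. With quantile normalisation, 41 of the 68 members fell, 1 rose and 26 were not called. An alternative scaled each array to its median over the probes that passed the detection filter, the same probes on every array. Under this scaling on detected probes the same comparison gave 4 lower and 4 higher, beside 2769 lower and 3101 higher of all 9795 genes. Called means an adjusted p under 0.05 in limma, with Benjamini-Hochberg adjustment over all 9795 genes. Over all genes tested 38.4% were called lower, 22.2% higher and 60.6% in either direction. The median log2 fold change of the members was -0.34, beside -0.14 for all genes, and under the scaling on detected probes both medians were 0.05. The direction of the family turned under that scaling, which was chosen after seeing the data. With scaling on the median of all probes, 48 members were lower and 0 higher, beside 5241 and 1508 of all 9795 genes. There the medians of the members and of all genes were both -0.42. Across settings, 4 members, Cox7a2l, Ndufa6, Ndufs7 and Uqcrq, were called lower in all 25 alternatives as well. Their values moved with the setting, between -0.87 and -0.39 for Cox7a2l, -0.88 and -0.40 for Ndufa6, -0.80 and -0.31 for Ndufs7 and -1.09 and -0.50 for Uqcrq. With quantile normalisation no member changed as much as 2-fold, and the fitted log2 fold changes ran between -0.80 and 0.49.

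**Figure D1:**
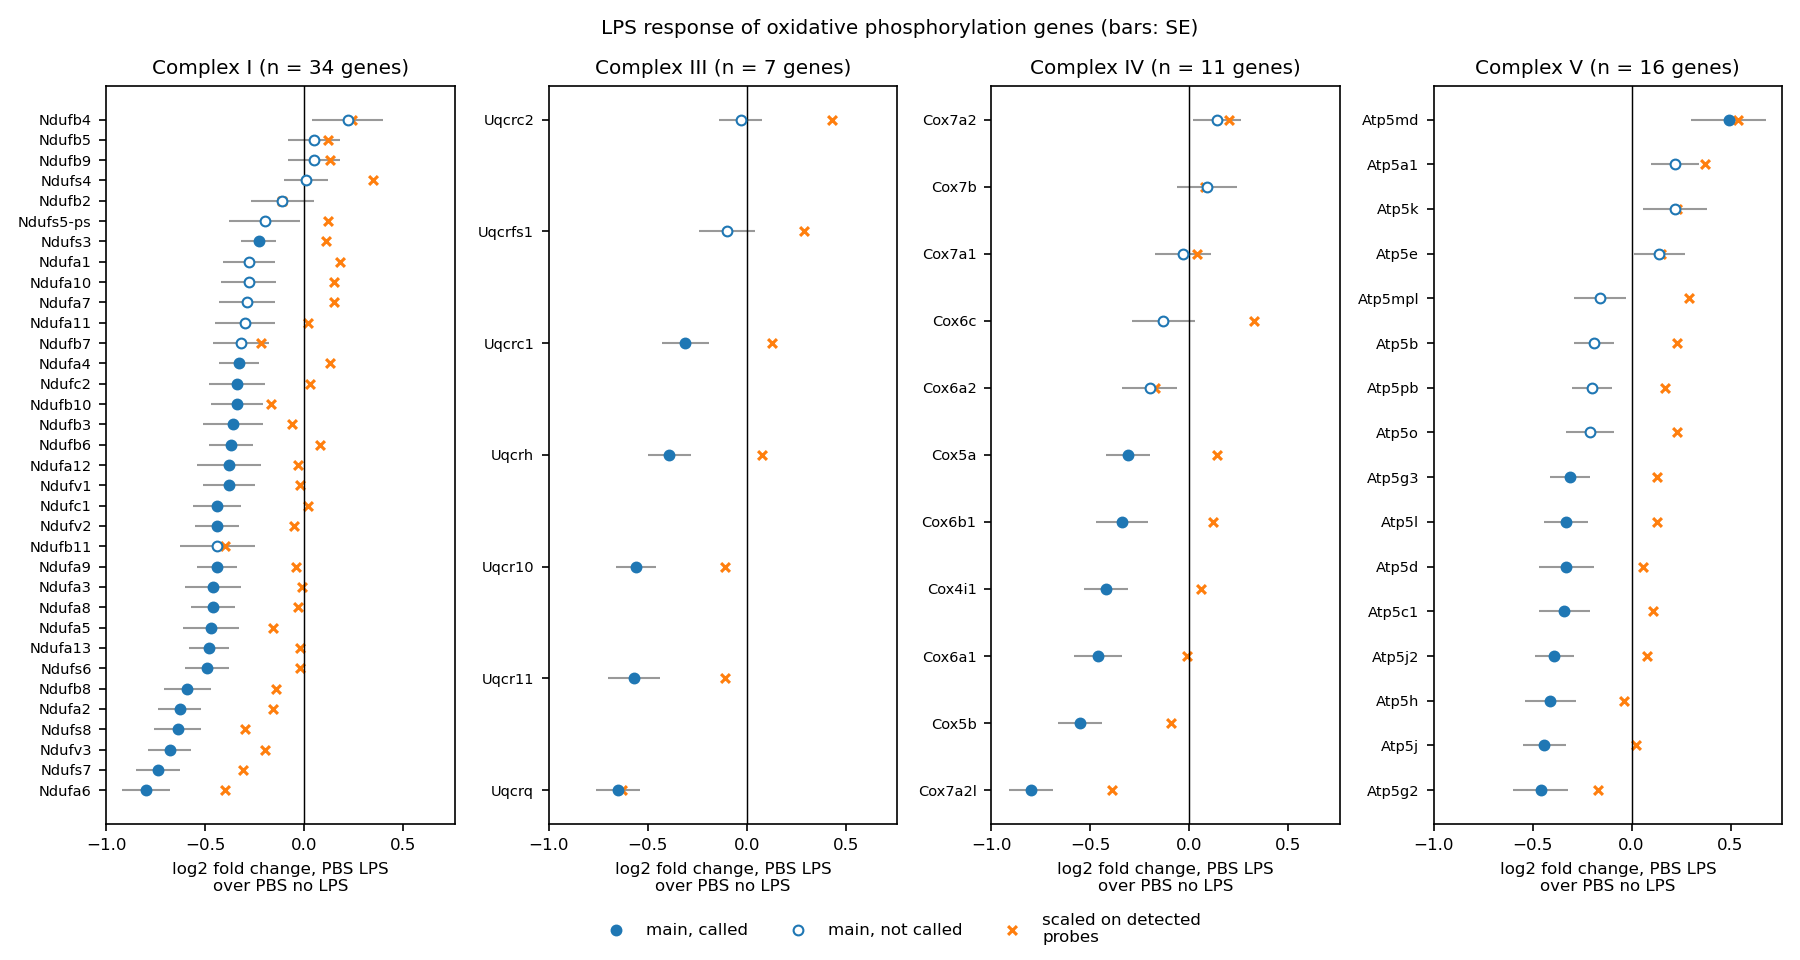
Log2 fold change of each of the 68 members, PBS LPS over PBS no LPS, in 4 panels by complex. Circles are quantile-normalised values (filled where called, open where not, bars 1 SE) and crosses are values after median scaling on detected probes. Most circles lie left of 0, with a median of -0.34, while the crosses centre at 0.05, so the direction of the family turns under that scaling.

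The arrays of the 2 groups did not overlap for 39 members that were lower and 2 that were higher, beside 40.6% and 24.7% of all genes. Members were also split by the mean signal of their probe. Of the 51 members with a mean log2 signal of at least 10, 39 were lower and their median was -0.38, beside -0.17 for all genes that bright, of which 41.4% were lower. Under the scaling on detected probes these medians were 0.02 for the bright members and 0.17 for all bright genes. Of the 17 dimmer members 2 were lower and 1 higher, 11.8% and 5.88% beside 38.4% and 22.2% of all genes at any signal. Their median was 0.05, beside -0.14 for all genes. Shares over dimmer genes alone were not counted. The median of the bright members lay below that of all bright genes under both scalings, although its own sign turned.

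Complex I, which had the most members, had 22 of 34 lower, 64.7% beside 38.4% of all genes. Its median of -0.38 shrank to -0.02 under the scaling on detected probes. Ndufa6, an accessory subunit of the LYR family on the matrix arm, had 11.48, 11.46 and 11.51 log2 signal in PBS LPS arrays, against 12.13, 12.42 and 12.28 in PBS no LPS arrays. Ndufs7, a core subunit that carries the iron-sulfur cluster next to the ubiquinone site, had 11.91, 11.73 and 11.72 in PBS LPS arrays, against 12.46, 12.67 and 12.45 in PBS no LPS arrays. For both genes every LPS array lay below every array without LPS, and the fall was by 0.80 ± 0.12 for Ndufa6 (adjusted p = 3.87e-05) and by 0.74 ± 0.11 for Ndufs7 (SE, n = 3 each, limma adjusted p = 3.77e-05). Under the scaling on detected probes the values were -0.40 and -0.31. Ndufv3, a small subunit of the NADH-oxidising flavoprotein module, averaged 12.23 ± 0.0732 in PBS LPS arrays, against 12.91 ± 0.0948 in PBS no LPS arrays (SD, n = 3 each). Ndufs8, another core iron-sulfur subunit, averaged 11.02 ± 0.0956 in PBS LPS arrays, against 11.65 ± 0.129 in PBS no LPS arrays (SD, n = 3 each). These groups were separate too, with falls by 0.68 and 0.64, and both calls were lost under the scaling on detected probes, where the values were -0.20 and -0.30.

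Other members of the NADH module were lower by less. Ndufv1, the flavin-binding core subunit, fell by 0.38 ± 0.13 (limma adjusted p = 0.0205), and Ndufv2, its iron-sulfur partner, fell by 0.44 ± 0.11 (limma adjusted p = 0.00218). Ndufs3, a core subunit of the matrix arm, had the smallest called fall in the complex, by 0.23 ± 0.09 (limma adjusted p = 0.0457). Of the accessory subunits, Ndufb8 fell by 0.59, Ndufa2 by 0.63, Ndufs6 by 0.49 and Ndufa13 by 0.48, all with separate groups. Ndufs4, an accessory subunit whose loss in humans causes Leigh syndrome, had 11.53, 11.39 and 11.63 in PBS LPS arrays, against 11.44, 11.56 and 11.53 in PBS no LPS arrays. Its groups overlapped, with a log2 fold change of 0.01, and it was called higher, at 0.35, under the scaling on detected probes. Ndufb4 had the highest fitted value in the complex, 0.22 ± 0.18, and was not called.

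The promoters of Cox7a2l, Ndufa6 and Ndufs7 are shown because these genes were called lower in every setting. Each is 300 bases from RefSeq (GRCm38.p6), 250 before the start and 50 after it, in lower case with searched words in capitals. Cox7a2l lies at chr17:83514284-83514583 on the minus strand, Ndufa6 at chr15:82354242-82354541 on the minus strand and Ndufs7 at chr10:80249199-80249498 on the plus strand. The words searched on both strands were GCATGCG (NRF1), CCGGAAG (ETS), AAGATGG (YY1), AAGGTCA (ESRRA) and GGGCGG (SP1).
Cox7a2l: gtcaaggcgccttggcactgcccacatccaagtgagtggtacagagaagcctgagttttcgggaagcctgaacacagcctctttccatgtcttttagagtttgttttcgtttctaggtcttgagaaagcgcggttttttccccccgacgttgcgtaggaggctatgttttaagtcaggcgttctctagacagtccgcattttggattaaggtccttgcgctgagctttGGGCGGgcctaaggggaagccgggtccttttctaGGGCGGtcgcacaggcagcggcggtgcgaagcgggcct
Ndufa6: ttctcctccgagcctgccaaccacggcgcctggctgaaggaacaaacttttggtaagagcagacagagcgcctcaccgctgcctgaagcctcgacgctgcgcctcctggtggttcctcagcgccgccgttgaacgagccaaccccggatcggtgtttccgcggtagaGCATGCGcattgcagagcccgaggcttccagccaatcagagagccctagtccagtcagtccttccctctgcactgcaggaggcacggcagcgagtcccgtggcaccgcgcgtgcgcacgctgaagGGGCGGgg
Ndufs7: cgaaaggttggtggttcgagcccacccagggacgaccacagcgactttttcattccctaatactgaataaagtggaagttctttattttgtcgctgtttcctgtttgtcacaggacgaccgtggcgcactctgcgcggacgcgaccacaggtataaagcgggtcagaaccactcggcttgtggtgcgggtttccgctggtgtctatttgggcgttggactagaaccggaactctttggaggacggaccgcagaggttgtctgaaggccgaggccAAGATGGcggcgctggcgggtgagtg
Cox7a2l held 2 SP1 words, Ndufa6 1 NRF1 and 1 SP1 word, and Ndufs7 1 YY1 word. Of the 68 members 58 matched a promoter. The NRF1 word was found in 17.2% of these members' promoters, against 4.01% of 27025 genes, the ETS word in 24.1% against 9.93%, the YY1 word in 17.2% against 7.28%, the ESRRA word in 10.3% against 5.38%, and the SP1 word in 41.4% against 38.2%. The 27025 genes were not limited to the 9795 tested. Members were then split by the LPS call with quantile normalisation. That split rests on the scaling, since 4 members were called lower under the scaling on detected probes. The NRF1 and the YY1 word each stood in 8 of the 38 matched members called lower and 2 of the other 20. The ETS word stood in 10 of 38 and 4 of 20, the SP1 word in 16 of 38 and 8 of 20, and the ESRRA word, the other way round, in 2 of 38 and 4 of 20. These matches describe letters in a window and were not tested against binding.

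In complex III, 5 of 7 members were lower, 71.4% beside 38.4% of all genes. The median of -0.39 turned to 0.08 under the scaling on detected probes. Uqcrq, a small subunit, had 7.16, 7.30 and 7.12 log2 signal in PBS LPS arrays, against 7.78, 7.91 and 7.82 in PBS no LPS arrays. Every LPS array lay below every array without LPS, and the fall was by 0.65 ± 0.11 (SE, n = 3 each, limma adjusted p = 9.21e-05). Uqcr10 and Uqcr11, small accessory subunits, fell by 0.56 and 0.57, and Uqcrh, the hinge protein that contacts cytochrome c1, fell by 0.39. Uqcrc1, a core subunit that faces the matrix, had 12.28, 12.06 and 11.91 in PBS LPS arrays, against 12.29, 12.49 and 12.41 in PBS no LPS arrays. Those groups differed by a narrow margin, a fall by 0.31 ± 0.12 (limma adjusted p = 0.0306), and the value was 0.13 under the scaling on detected probes. Uqcrc2, its core partner, had 12.68, 12.60 and 12.72 in PBS LPS arrays, against 12.59, 12.56 and 12.93 in PBS no LPS arrays. Its groups overlapped, with a log2 fold change of -0.03, and it was called higher, at 0.43, under the scaling on detected probes and lower, at -0.22, with array weights. Uqcrfs1 had 4.99, 4.89 and 5.07 in PBS LPS arrays, all of them undetected, against 5.15, 5.24 and 4.86 in PBS no LPS arrays, 1 of them detected.

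In complex IV, 6 of 11 members were lower, 54.5% beside 38.4% of all genes. The median of -0.31 turned to 0.06 under the scaling on detected probes. Cox7a2l is the supercomplex assembly factor named above, and whether its protein joins complexes in these cells was not measured. It had 11.58, 11.36 and 11.36 log2 signal in PBS LPS arrays, against 12.26, 12.33 and 12.10 in PBS no LPS arrays. Its groups were far apart, with a fall by 0.80 ± 0.11 (SE, n = 3 each, limma adjusted p = 2.21e-05), the lowest adjusted p of any member, and a value of -0.39 under the scaling on detected probes. The ubiquitous subunits Cox5b, Cox6a1 and Cox4i1 fell by 0.55, 0.46 and 0.42, and Cox6b1 and Cox5a by 0.34 and 0.31. Cox4i1, a subunit through which ATP is known to inhibit the enzyme, had a value of 0.06 under the scaling on detected probes. Cox6a2 and Cox7a1, the isoforms typical of heart and skeletal muscle, were detected on all 12 arrays and were not called, with log2 fold changes of -0.20 ± 0.14 and -0.03 ± 0.14. Cox7a2, the form found in most tissues, had 8.69, 8.79 and 8.87 in PBS LPS arrays, against 8.64, 8.64 and 8.66 in PBS no LPS arrays. These did not overlap, yet the difference of 0.14 ± 0.12 was not called (limma adjusted p = 0.354).

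In complex V, 8 of 16 members were lower and 1 higher, 50% and 6.25% beside 38.4% and 22.2% of all genes. The median of -0.26 turned to 0.14 under the scaling on detected probes. Atp5g2, one of the genes for the proton-carrying c subunit, fell by 0.46 ± 0.14 (limma adjusted p = 0.0133), and Atp5g3, another, fell by 0.31 ± 0.10 (limma adjusted p = 0.0144). Atp5j, coupling factor 6 of the stalk, fell by 0.44 and had a value of 0.02 under the scaling on detected probes. Atp5c1 and Atp5d, the gamma and delta subunits of the central stalk, fell by 0.34 and 0.33, each with overlapping groups. Atp5b, the catalytic beta subunit, had 14.39, 14.43 and 14.39 in PBS LPS arrays, against 14.72, 14.49 and 14.57 in PBS no LPS arrays. The groups did not overlap but the difference of -0.19 ± 0.10 was not called (limma adjusted p = 0.113). Atp5a1, the alpha subunit, was not called at 0.22 ± 0.12, and was called higher under the scaling on detected probes. Atp5md, a small subunit linked to dimers of the enzyme, had 6.58, 6.56 and 7.17 in PBS LPS arrays, against 6.09, 6.60 and 6.14 in PBS no LPS arrays. It was the member that rose, by 0.49 ± 0.19 (limma adjusted p = 0.0321), with overlapping groups. It was called in 20 of 25 alternative settings. Its call was lost with scaling on the median of all probes, where the value was 0.08, and without the detection filter, where the value stayed at 0.49. Its value was 0.30, not called, without PBS LPS replicate 9, and 0.40 and 0.42, not called, without PBS no LPS replicate 1 and replicate 3.

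**Figure D2:**
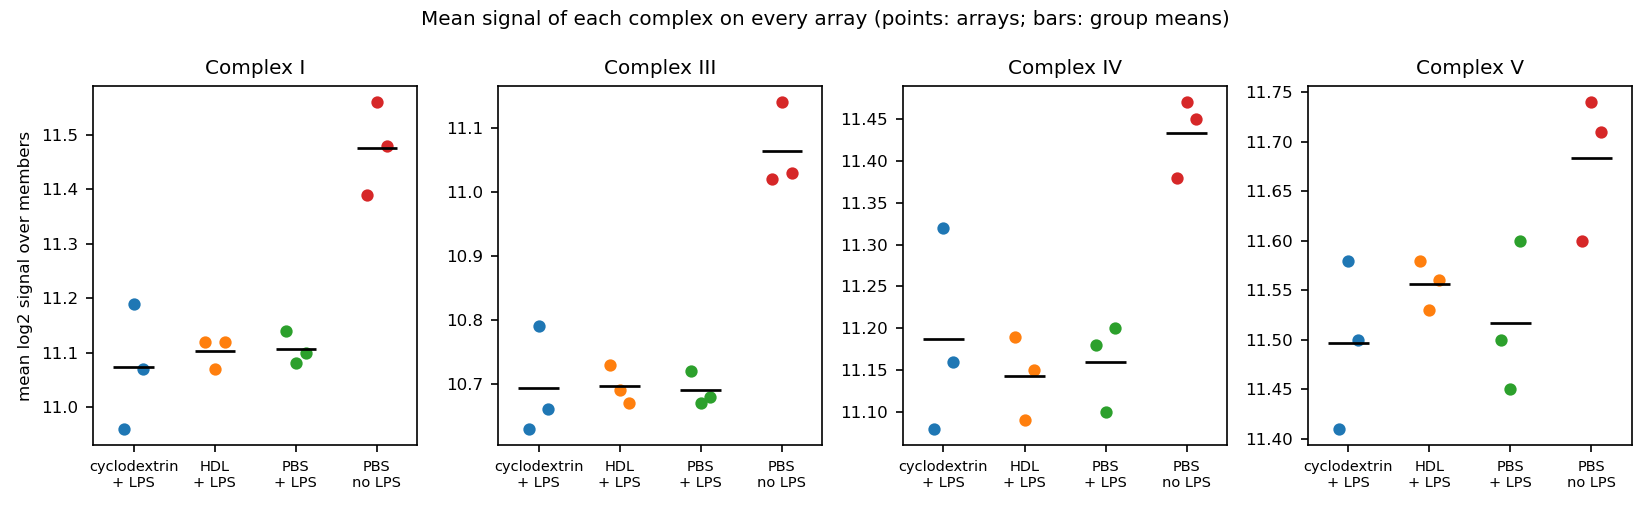
Mean log2 signal over the members of each complex, one point per array and a bar at the group mean, for cyclodextrin LPS, HDL LPS, PBS LPS and PBS no LPS, with axes that differ between panels. For complex I the PBS LPS arrays lie between 11.08 and 11.14, against 11.39 to 11.56 in PBS no LPS arrays. The values shown are quantile-normalised means, which were not computed under scaling on detected probes. There, the median log2 fold changes under LPS turned to 0.08, 0.06 and 0.14 for complexes III, IV and V.

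For 22 members several probes passed. The used probe was called in 16 of them under LPS, and in 9 of these 16 every probe of the gene was called in the same direction. No gene had probes called in opposite directions. Of the 27 other probes 19 had a log2 fold change below 0, beside 5789 of all 9795 genes. These values are quantile-normalised, and under the scaling on detected probes 29 of the 68 members lay below 0.

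Ndufa4 has a known relative, AA467197 (C15orf48, also NMES1), which in human cells takes the place of NDUFA4 in complex IV under inflammation. AA467197 had 13.82, 13.92 and 14.04 log2 signal in PBS LPS arrays, against 7.18, 7.05 and 7.21 in PBS no LPS arrays. Ndufa4 itself had 12.97, 12.83 and 13.07 in PBS LPS arrays, against 13.28, 13.28 and 13.30 in PBS no LPS arrays. AA467197 rose by 6.78 ± 0.11 on the log2 scale, 110-fold (limma adjusted p = 8.53e-16), and the fall of Ndufa4 by 0.33 ± 0.10 (limma adjusted p = 0.0121) turned to 0.13 under the scaling on detected probes. The groups of each gene were separate, and the arrays of AA467197 lay far apart. Under the treatments AA467197 had 14.11, 14.20 and 14.34 in cyclodextrin arrays and 14.18, 14.25 and 14.23 in HDL arrays. These lay above the PBS LPS arrays by 0.29 ± 0.11 after cyclodextrin and 0.30 ± 0.11 after HDL, and neither difference was called. The annotation places Mir147 inside the AA467197 locus, the miRNA at chr2:122640803-122640881 and the gene at chr2:122637887-122641076.

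The promoters of this pair are shown to set the genes side by side. They come from RefSeq (GRCm38.p6), AA467197 at chr2:122637637-122637936 on the plus strand and Ndufa4 at chr6:11907401-11907700 on the minus strand, and no searched word occurred in either.
AA467197: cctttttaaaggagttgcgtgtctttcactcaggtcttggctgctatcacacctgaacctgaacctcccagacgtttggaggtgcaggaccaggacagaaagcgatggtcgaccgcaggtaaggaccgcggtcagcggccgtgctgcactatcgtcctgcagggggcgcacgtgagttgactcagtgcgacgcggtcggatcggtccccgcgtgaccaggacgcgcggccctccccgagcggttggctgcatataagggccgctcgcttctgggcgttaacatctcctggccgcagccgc
Ndufa4: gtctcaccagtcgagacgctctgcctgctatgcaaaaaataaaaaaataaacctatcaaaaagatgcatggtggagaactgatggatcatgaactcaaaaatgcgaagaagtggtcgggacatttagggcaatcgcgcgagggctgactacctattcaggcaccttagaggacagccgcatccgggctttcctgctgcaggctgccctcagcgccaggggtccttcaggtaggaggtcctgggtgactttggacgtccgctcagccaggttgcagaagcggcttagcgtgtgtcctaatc
Lower case marks bases outside the searched words, here all of them. This says only that those letters are not in these windows.

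**Figure D3:**
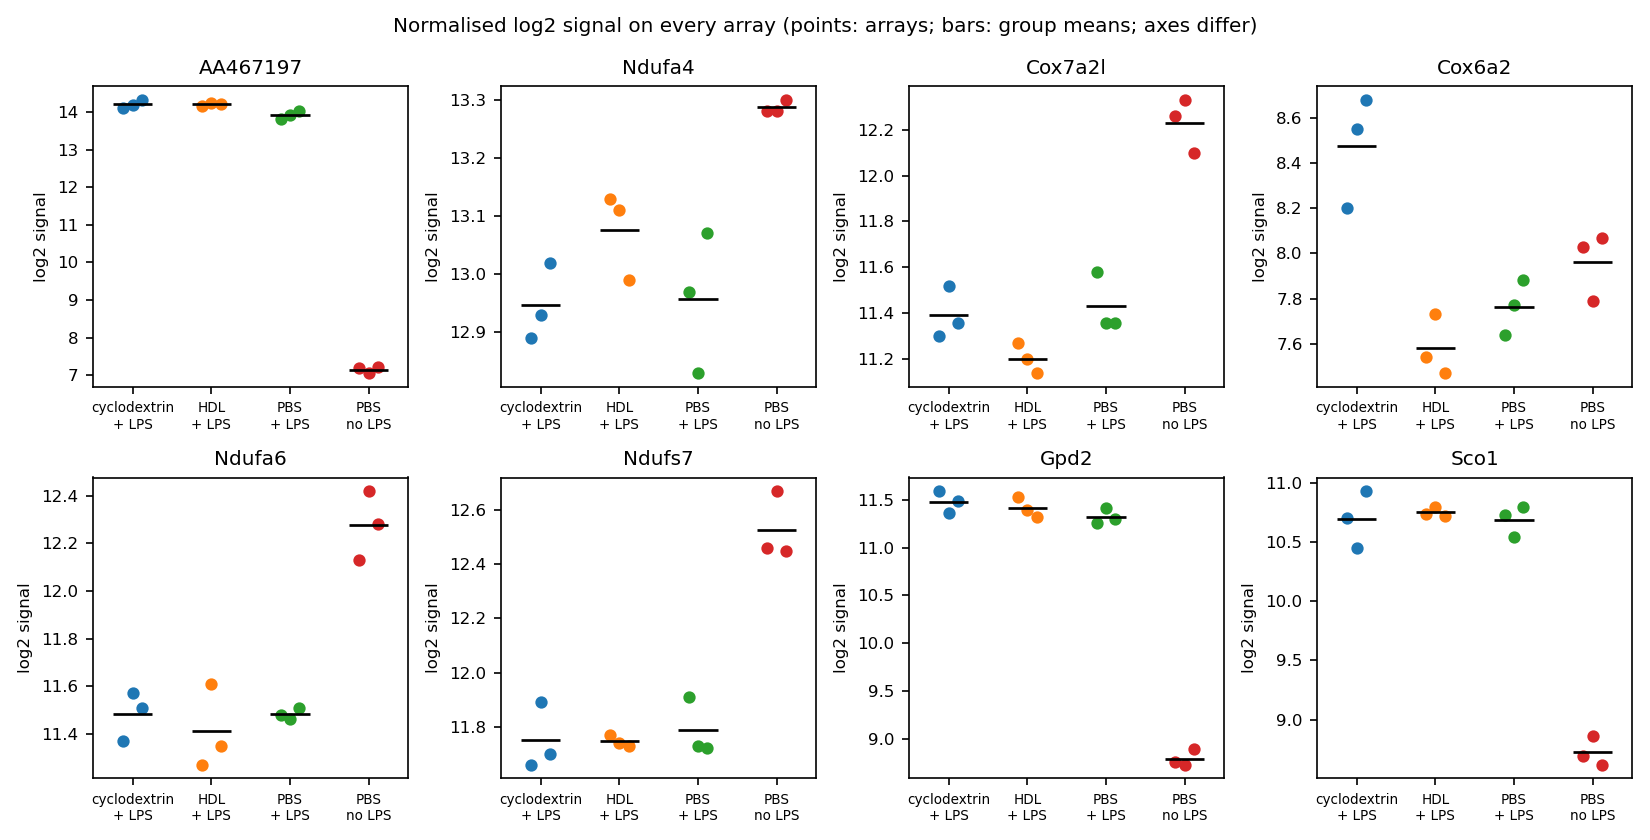
Log2 signal of 8 genes on every array, for cyclodextrin LPS, HDL LPS, PBS LPS and PBS no LPS, points for arrays and bars for group means, with axes that differ between panels. AA467197 lies at 13.82 to 14.04 in PBS LPS arrays, against 7.05 to 7.21 in PBS no LPS arrays, and Cox6a2 lies highest in cyclodextrin arrays.

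Genes that build, feed or serve the complexes moved unevenly under LPS. The counts in this and the next paragraph stand beside 38.4% of all genes called lower and 22.2% called higher. Under the scaling on detected probes, 2769 of all 9795 genes were lower and 3101 higher. Of the mitochondrially encoded subunits 0 of 8 were called by limma, 0 had an unadjusted p under 0.05 and their median was -0.04, while under the scaling on detected probes 6 of 8 were higher with a median of 0.37. Complex II had 2 of 3 measured genes lower, Sdhc by 0.75 and Sdhb by 0.41, with 1 lower under the scaling on detected probes. Of 7 dehydrogenases that also feed ubiquinone, 5 were lower and 1, Gpd2, rose, against 3 lower and 1 higher under the scaling on detected probes. Gpd2, the mitochondrial glycerol-3-phosphate dehydrogenase, had 11.26, 11.41 and 11.30 in PBS LPS arrays, against 8.76, 8.73 and 8.89 in PBS no LPS arrays. Those arrays were far apart, with a rise by 2.53 ± 0.11 (limma adjusted p = 4.14e-11). Dhodh, of pyrimidine synthesis, fell by 0.75, and Etfb, of fatty acid oxidation, by 0.73.

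Of 17 assembly factors of complex IV 5 were higher and 7 lower, shares of 29.4% and 41.2% beside 22.2% and 38.4% of all genes, against 7 higher and 3 lower under the scaling on detected probes. Sco1, a copper chaperone, had 10.73, 10.54 and 10.80 in PBS LPS arrays, against 8.69, 8.86 and 8.62 in PBS no LPS arrays. It rose by 1.96 ± 0.13 (limma adjusted p = 6.2e-09), while Coa5 rose by 1.21, Cox18, a membrane insertase, by 1.20 and Cox15, of heme A synthesis, by 0.71. Coa6 fell by 1.07 and Coa4 by 1.00. Coa7 was undetected with LPS and was at least 1.42-fold lower there, counted from the lowest detected signal. In the complex I assembly list 6 of 12 were lower and 1 higher, against 4 lower and 2 higher under the scaling on detected probes. The largest falls were those of Ndufaf7, a methyltransferase, by 1.34 ± 0.12 (limma adjusted p = 1.93e-07), and of Ecsit, by 1.01. That list also held Ndufab1, known as a complex I subunit, whose symbol the member rule did not match. Of 4 complex III assembly factors 3 were lower and 1 higher, against 1 lower and 1 higher under the scaling on detected probes: Bcs1l, the AAA protein that inserts the Rieske subunit, fell by 0.91 and Ttc19 rose by 0.82. Atpif1, the inhibitor of the ATP synthase, fell by 0.64 and Atpaf2, an assembly factor of it, rose by 0.35, and of the 3 measured genes of that list 2 were lower and 1 higher, against 0 lower and 1 higher under the scaling on detected probes, where Atpif1 was at -0.18. Cycs, cytochrome c, rose by 0.99 ± 0.13 (limma adjusted p = 1.11e-05), while the carriers Slc25a3 and Slc25a5 fell by 0.58 and 0.40, falls that were not called under the scaling on detected probes. Of 10 regulators of mitochondrial transcription 4 were lower and 3 higher under both scalings. These shares were 40% and 30%, beside 38.4% and 22.2% of all genes with quantile normalisation. Polrmt, the polymerase, fell by 1.29 and Tfb2m by 1.07, while Gabpa rose by 0.77 and Esrra by 0.52. Tfam was not called at -0.07.

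**Figure D4:**
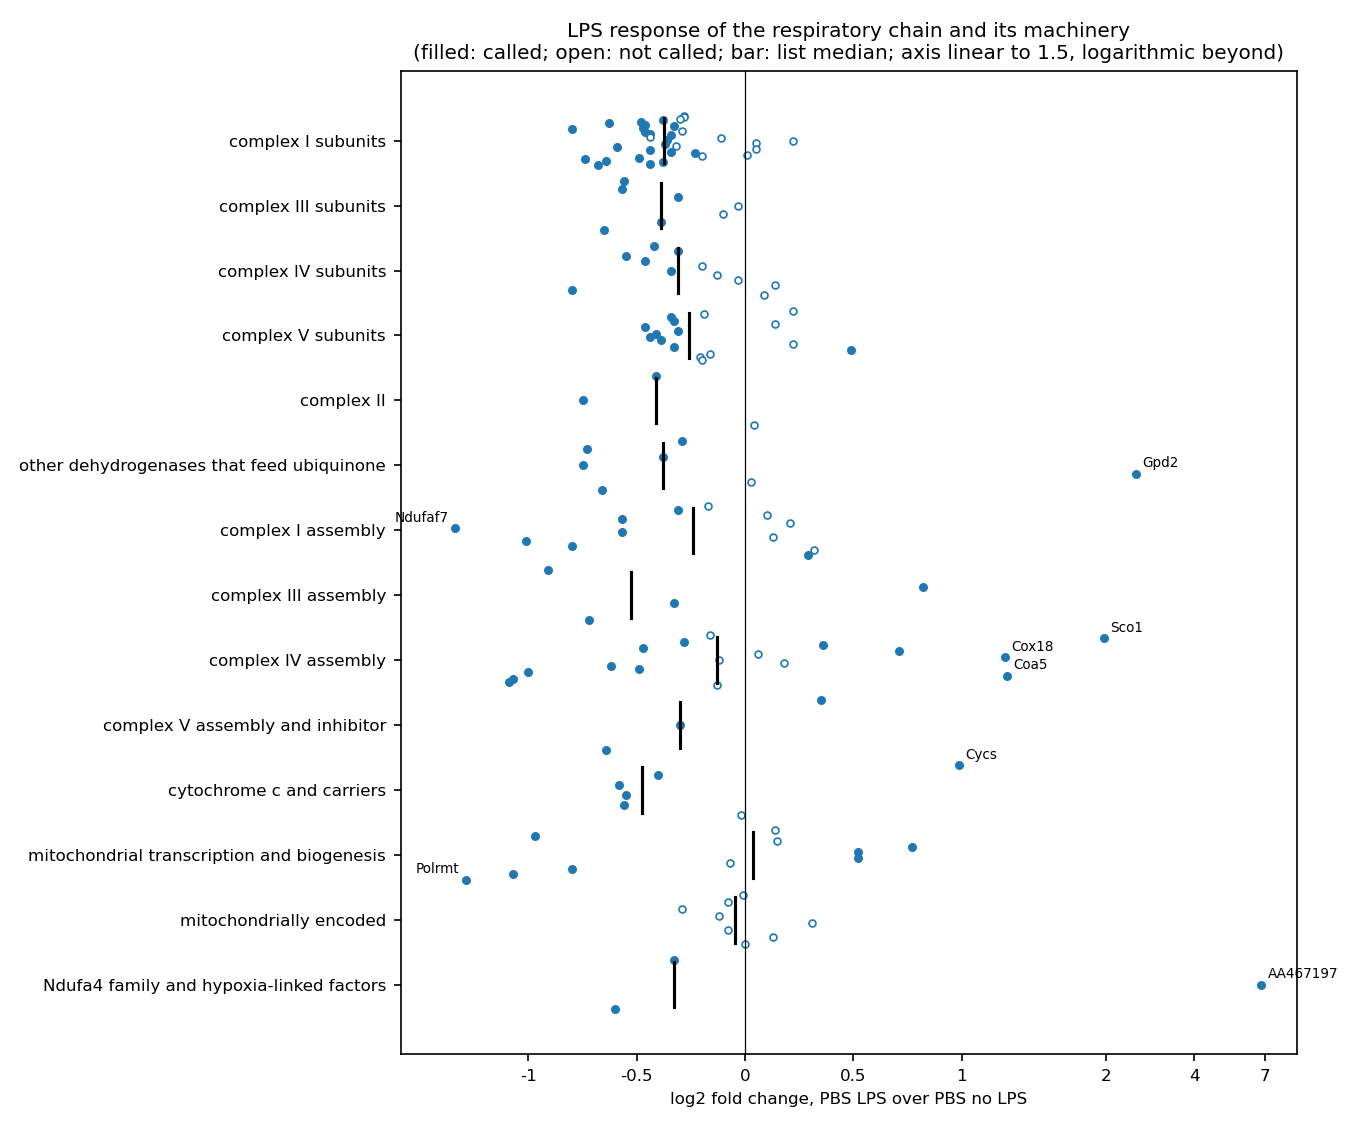
Log2 fold change, PBS LPS over PBS no LPS, of the members by complex and of 10 lists of related genes. Each point is a gene (filled where called), bars are list medians, and the axis is linear to 1.5 and logarithmic beyond. AA467197 lies at 6.78, Gpd2 at 2.53 and Sco1 at 1.96, while the 68 members lie between -0.80 and 0.49. The medians of the members turn to 0.08, 0.06 and 0.14 for complexes III, IV and V under scaling on detected probes.

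The second comparison asked whether cholesterol-handling pretreatment changed these genes under LPS. Under HDL, 0 of 68 members were called, beside 1.86% of all genes (0.776% called higher and 1.08% lower), and 5 had an unadjusted p under 0.05, beside 1755 of all 9795 genes. The median log2 fold change was 0.01 (range -0.31 to 0.42), with standard errors from 0.09 to 0.19. Cox7b had the highest value, 0.42 ± 0.15 (limma adjusted p = 0.174), and Uqcrc1 the lowest, -0.31 ± 0.12 (limma adjusted p = 0.177). HDL arrays did not overlap PBS LPS arrays for 8 members higher and 11 lower, beside 12.1% and 13.8% of all genes. By complex, the HDL median was -0.18 in complex IV and between -0.01 and 0.09 in the others. No related gene was called by limma. An unadjusted p under 0.05 held for 4 of 12 complex I assembly genes, 3 of 8 mitochondrially encoded genes and at most 1 gene of each other list.

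After cyclodextrin, 1 of 68 members was called against PBS, beside 5.13% of all genes in either direction with 2.41% called higher and 2.72% lower. The median was -0.03. Cyclodextrin arrays did not overlap PBS LPS arrays for 3 members higher and 2 lower, beside 13% and 13.4% of all genes. The member called was Cox6a2, which had 8.20, 8.55 and 8.68 log2 signal in cyclodextrin arrays, 7.54, 7.73 and 7.47 in HDL arrays, and 7.64, 7.77 and 7.88 in PBS LPS arrays. Every cyclodextrin array lay above every HDL and PBS LPS array. The difference was 0.72 ± 0.14 against PBS (limma adjusted p = 0.00819) and 0.90 ± 0.14 against HDL (limma adjusted p = 0.00366), and it was called in all 25 alternative settings. Against HDL it was also the only member called, beside 2.78% of all genes, with 1.25% called higher and 1.53% lower. Cyclodextrin arrays did not overlap HDL arrays for 4 members higher and 4 lower, beside 12.6% and 11.8% of all genes, and the median was -0.05, which turned to 0.03 under the scaling on detected probes, beside 0.07 for all genes. Atp5d, at -0.35 ± 0.14, had the lowest value against PBS and was not called (limma adjusted p = 0.168). Uqcrfs1 had 5.40, 5.54 and 5.34 in cyclodextrin arrays, 2 of them detected, against 4.99, 4.89 and 5.07 in PBS LPS arrays, all undetected, and was not called (limma adjusted p = 0.0896).

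**Figure D5:**
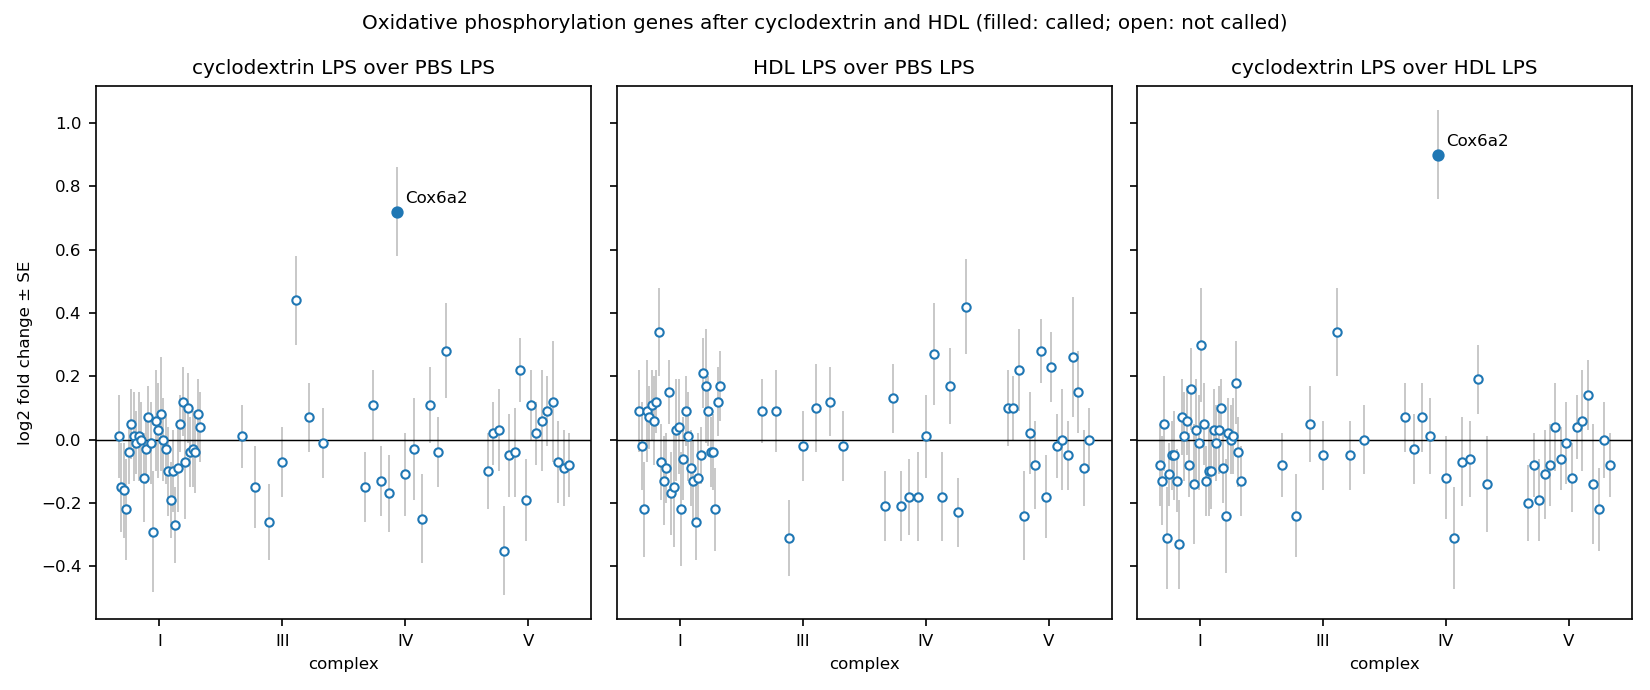
Log2 fold change ± SE of each member by complex, for cyclodextrin LPS over PBS LPS, HDL LPS over PBS LPS and cyclodextrin LPS over HDL LPS, filled where called. Cox6a2 is the filled point, at 0.72 over PBS LPS and 0.90 over HDL LPS, and no member is filled for HDL.

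Few related genes were called after cyclodextrin. Gabpb1, a partner of the GABP factor, was higher after cyclodextrin than in PBS LPS cells by 0.68 ± 0.12 (limma adjusted p = 0.00624), and it was called in 24 of 25 alternative settings, with values from 0.38 to 0.81. Of the 10 regulators of mitochondrial transcription measured, Gabpb1 among them, 8 had a value above 0 after cyclodextrin against PBS, with a median of 0.21, and 9 against HDL, with a median of 0.27. An unadjusted p under 0.05 held for 4 of them against PBS, beside 1878 of all 9795 genes, and for 5 against HDL, beside 1811, where limma called 0 after adjustment. Against HDL, Acad9 and Tmem126b, both complex I assembly factors, were lower in cyclodextrin cells by 0.46 and 0.44 (limma adjusted p = 0.031 and 0.0466), and those calls were lost in 6 and 12 of the 25 alternative settings.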

How the data were processed

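Total RNA of 12 macrophage samples was read on Illumina mouse arrays, with GenomeStudio named in the submitters' processing notes. The deposited non-normalized table held a signal and a detection p-value per probe, and a second deposited table held the authors' processed values, both on a linear scale. Most decimal marks were missing from the deposited tables and were placed again before use. Of 543372 signals 2.02% kept their decimal mark, for 75.4% the detection p-value or the digits themselves fixed its place, and for 22.6% the curve of signal against the processed value did. A test of the curve step hid and placed again 2566 known values, all with a detection p of 0, and got 0 wrong. Places fixed by the detection p-value or the digits were not tested this way.

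Signals were corrected and quantile-normalised with neqc (offset 16, limma 3.58.1 in R 4.3.3), with the detection p-value standing in for control probes, and log2 values were fitted with lmFit and eBayes over all 12 arrays without covariates, with 8 residual and 6.21 prior degrees of freedom. Of 45281 probes 34885 had 1 gene symbol, 18 several and 10378 none, and a gene needed detection p under 0.05 on 3 arrays. Adjusted p-values (Benjamini-Hochberg) run over 9795 genes. The procedure was tested on simulated data. Named genes were the called members with the largest change (up to 25 per comparison), the highest and lowest member of each complex, a list of known subunits, and the leading called genes of each related list. Alternatives were other background corrections, scalings, filters, probe rules, fits and left-out arrays. The labels name no batch, slide or scan date, and replicate numbers are not shared between groups. The members and gene lists were chosen with earlier results of these data known. Members were split at a mean log2 probe signal of 10, and no gene's abundance was set against another's.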

Additional observations from a re-analysis of the deposited data

How the results depend on the processing

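The scaling of the arrays changed the LPS results most. An alternative chosen after seeing the data scaled each array to its median over the probes that passed the detection filter. With it, 8 members were called in the LPS comparison in place of 42, and the members' median was 0.05 in place of -0.34. Under that scaling complex III, IV and V had LPS medians of 0.08, 0.06 and 0.14, and the LPS values were 0.02 for Atp5j and for Ndufc1, 0.06 for Cox4i1, 0.43 for Uqcrc2, and 0.13 for Ndufa4 and for Uqcrc1. For cyclodextrin against HDL the members' median was 0.03 there, and those of complexes I, III, IV and V were 0.04, 0.02, 0.06 and 0.01, all negative with quantile normalisation. Over all genes, 3101 rose and 2769 fell under LPS with that scaling, 1508 rose and 5241 fell with scaling on the median of all probes, and 2172 rose and 3762 fell with quantile normalisation. With scaling on the median of all probes, the members' median was -0.15 for cyclodextrin against PBS, beside -0.11 for all genes. For cyclodextrin against HDL it was -0.17, beside -0.14 for all genes. With each array centred on the median of all genes, also chosen after seeing the data, 26 members fell and 2 rose under LPS. These were 38.2% of members lower, beside 32.5% of all genes (3179 lower and 2563 higher of 9795). The medians were -0.23 for members and -0.04 for all genes. The causes were not tested.

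For cyclodextrin against PBS, 2 members were called with only the 2 groups in the fit, with array weights and with the detected-probe scaling, the added gene being Uqcrfs1. Leaving out 1 array at a time gave 29 to 42 members called under LPS with medians from -0.40 to -0.31, beside -0.15 to -0.13 for all genes. Members called lower were 41.2% to 61.2%, beside 33.6% to 38.8% of all genes. Leaving out arrays gave 0 for HDL against PBS with medians from -0.01 to 0.04. It gave 1 to 2 for cyclodextrin against PBS with medians from -0.08 to 0.01, and 1 for cyclodextrin against HDL with medians from -0.08 to 0.01. The 2 called came without HDL replicate 18. The medians of all genes lay between -0.01 and 0.02 in these comparisons. No paired analysis was possible because the groups share no replicate numbers. Having 3 arrays per group and signals near background limits what the dim members can show.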
